A study of Mus musculus with 7 samples.

Results

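The 4 Hox gene clusters of the mouse, HoxA to HoxD, were examined in lists of peaks called from ChIP-seq, the sequencing of DNA pulled down with an antibody against a chromatin protein or mark. Members were all deposited peaks that overlapped 1 of 4 windows of build mm9 by at least 1 bp. The HoxA window was chr6:52050000-52250000 (200 kb), the HoxB window chr11:96030000-96260000 (230 kb), the HoxC window chr15:102700000-102900000 (200 kb) and the HoxD window chr2:74470000-74640000 (170 kb). They held 195 of the 63933 peaks in 4 lists. Of these, 66 belonged to the 8184 Suz12 peaks of embryonic stem cells (ESCs) and 127 to the 52296 Zfp281 peaks of ESCs. A further 2 belonged to the 3449 Zfp281 peaks of extraembryonic endoderm stem cells (XENs), and none to the 4 Suz12 peaks of XENs. Between them the windows stand for 38 listed genes. These are Hoxa2, Hoxa3, Hoxa4, Hoxa5, Hoxa6, Hoxa7, Hoxa9, Hoxa10, Hoxa11 and Hoxa13 in HoxA, and Hoxb1, Hoxb2, Hoxb3, Hoxb4, Hoxb5, Hoxb6, Hoxb7, Hoxb8, Hoxb9 and Hoxb13 in HoxB. HoxC holds Hoxc4, Hoxc5, Hoxc6, Hoxc8, Hoxc9, Hoxc10, Hoxc11, Hoxc12 and Hoxc13, and HoxD holds Hoxd1, Hoxd3, Hoxd4, Hoxd8, Hoxd9, Hoxd10, Hoxd11, Hoxd12 and Hoxd13.

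The study mapped 2 proteins, the zinc finger factor Zfp281 and Suz12 of Polycomb repressive complex 2, in ESCs and XENs, and trimethylated lysine 27 of histone H3 (H3K27me3) in XENs. All 7 samples were of strain 129S1, grown without feeder cells, ESCs with serum and leukemia inhibitory factor and XENs in medium conditioned by mouse embryonic fibroblasts. They made 7 groups of 1 library: Suz12, Zfp281 and input in ESCs, and Suz12, Zfp281, H3K27me3 and input in XENs. No genetic change or drug was labelled in any group. The input samples came with no peak list. With 1 library per group there was no spread between replicates, so no difference between cell types or antibodies was tested. Bounds in parentheses after a share are 95% Wilson intervals. They reflect counting error alone, and peaks that lie side by side are not independent of each other.

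Hox genes encode homeodomain transcription factors that give cells their position along the head-to-tail axis. Within a cluster the genes lie in the order of their paralogue numbers, and low-numbered genes are switched on earlier and nearer the head than high-numbered ones. In ESCs the clusters are textbook targets of Polycomb, whose repressive complex 2 places H3K27me3 over them and keeps them silent until the embryo patterns its axis. At the low-numbered end, Hoxb1 and Hoxa2 pattern the hindbrain and its neural crest, and Hoxa3 is needed for the thymus and parathyroid. In the middle, Hoxa5 acts in the lung, Hoxb4 in blood stem cells and Hoxc8 in thoracic vertebrae and motor neurons. At the high-numbered end, Hoxa11 and Hoxd11 act in the forelimb and kidney, Hoxd13 in the digits, Hoxc13 in hair and Hoxb13 in the tail and prostate. Per the RefSeq gene table of build GRCm38.p6, in which 38 of 38 listed genes were found, numbers rise along the chromosome in HoxA, from Hoxa2 to Hoxa13. In HoxB, HoxC and HoxD the paralogue 13 gene comes first along the chromosome.

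Zfp281 is known to bind G-rich DNA, so the sequences just upstream of Hox start sites were searched for the letters GGGGAGGG on either strand (CCCTCCCC on the other). The search used the 250 bases before each start in RefSeq's promoter table (GRCm38.p6), which had 24 upstream sequences for 22 of the 38 genes. The letters occurred in 4 of the 24 (16.7%), those of Hoxa7, Hoxa11, Hoxb4 and Hoxc4, and in 9.69% of all 32851 upstream sequences of the table. A match is a run of letters and not a shown binding site, and 4 matches are too few to set the Hox genes apart. The 4 are printed with the match in capitals, because they show how such an element sits in a Hox promoter. Those of Hoxa13 and Hoxd13, which hold no match, follow because they had the most CpG dinucleotides of the 24, with 35 and 31. Dense CpG is a known feature of DNA that Polycomb occupies.
Hoxa7 upstream sequence, chr6:52218574-52218823, minus strand: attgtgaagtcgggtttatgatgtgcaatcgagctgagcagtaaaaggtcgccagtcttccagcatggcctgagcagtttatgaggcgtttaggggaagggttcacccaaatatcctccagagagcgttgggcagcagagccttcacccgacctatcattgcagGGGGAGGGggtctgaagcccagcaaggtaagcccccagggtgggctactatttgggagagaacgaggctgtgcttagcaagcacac
Hoxa11 upstream sequence, chr6:52245811-52246060, minus strand: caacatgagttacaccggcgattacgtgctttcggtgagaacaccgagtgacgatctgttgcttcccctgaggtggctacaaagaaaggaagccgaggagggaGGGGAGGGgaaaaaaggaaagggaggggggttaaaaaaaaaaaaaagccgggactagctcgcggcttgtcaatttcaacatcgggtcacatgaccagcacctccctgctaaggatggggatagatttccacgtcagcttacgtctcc
Hoxb4 upstream sequence, chr11:96318017-96318266, plus strand: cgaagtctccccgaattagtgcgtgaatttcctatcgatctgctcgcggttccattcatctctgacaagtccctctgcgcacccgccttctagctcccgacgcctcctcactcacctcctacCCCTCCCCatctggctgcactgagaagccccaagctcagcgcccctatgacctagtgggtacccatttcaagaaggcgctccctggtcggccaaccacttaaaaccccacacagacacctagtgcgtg
Hoxc4 upstream sequence, chr15:103034145-103034394, plus strand: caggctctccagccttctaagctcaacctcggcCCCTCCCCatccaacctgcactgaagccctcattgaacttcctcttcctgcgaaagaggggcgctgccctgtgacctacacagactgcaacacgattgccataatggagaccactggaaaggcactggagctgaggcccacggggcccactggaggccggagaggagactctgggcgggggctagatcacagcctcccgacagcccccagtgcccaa
Hoxa13 upstream sequence, chr6:52260881-52261130, minus strand: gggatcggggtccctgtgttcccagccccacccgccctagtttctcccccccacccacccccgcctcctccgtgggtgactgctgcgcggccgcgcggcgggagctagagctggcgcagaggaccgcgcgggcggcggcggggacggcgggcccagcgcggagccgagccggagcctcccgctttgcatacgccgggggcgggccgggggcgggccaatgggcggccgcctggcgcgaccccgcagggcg
Hoxd13 upstream sequence, chr2:74667975-74668224, plus strand: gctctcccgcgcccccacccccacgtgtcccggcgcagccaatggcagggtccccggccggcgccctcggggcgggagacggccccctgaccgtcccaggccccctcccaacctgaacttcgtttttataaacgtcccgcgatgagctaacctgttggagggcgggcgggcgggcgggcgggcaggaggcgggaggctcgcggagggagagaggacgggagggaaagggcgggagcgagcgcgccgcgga
The 24 upstream sequences had a median of 12.5 CpG dinucleotides (2 to 35), against 6 over the whole table, and a median GC content of 58.6% against 52.4%. These positions belong to GRCm38.p6 and cannot be set beside the mm9 positions of the peaks. For the same reason no peak is assigned to a single Hox gene here, and the cell types were not checked against marker genes.

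The XEN libraries stood apart before any Hox result. The XEN Suz12 list held 4 peaks and the XEN H3K27me3 list 1, none of them in a Hox window. With so few peaks in the whole genome, these lists do not show whether Suz12 or its mark lay on the Hox clusters of XENs. The tags of a peak are here the pile-up behind its deposited fold and p-value, before scaling. They are not the number of reads along its whole width. The 3 longer lists had medians of 25 such tags for ESC Zfp281, 42 for ESC Suz12 and 33 for XEN Zfp281. The lowest values were 10, 17 and 15. They were read back from the deposited fold and p-value on the assumption that the caller used a Poisson p-value.

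In ESCs, Suz12 covered most of every Hox window. Its peaks took up 56.6% of the HoxA window (113.3 kb), 58.2% of HoxB (133.7 kb), 61.7% of HoxC (123.4 kb) and 57.4% of HoxD (97.7 kb). The 4 clusters were alike in this measure. Over all 4 windows the share was 58.5%, against 0.481% of chromosomes 1 to 19 and X outside them, a ratio of 122. The share depends on the bounds of the windows, and was 41.3% with each widened by 50 kb on both sides. The number of peaks differed more, with 17 in HoxA, 13 in HoxB, 22 in HoxC and 14 in HoxD, and single peaks ranged from 381 to 85840 bp. A window of the same length held as many bases in Suz12 peaks in 0.0234% of 12830 tiles for HoxA, 0% of 11158 for HoxB, 0.0156% of 12830 for HoxC and 0.0199% of 15100 for HoxD. Each such tile overlapped a Hox window. Outside the windows, the fullest 200 kb tile held 58.04 kb of Suz12 peaks.

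**Figure D1:**
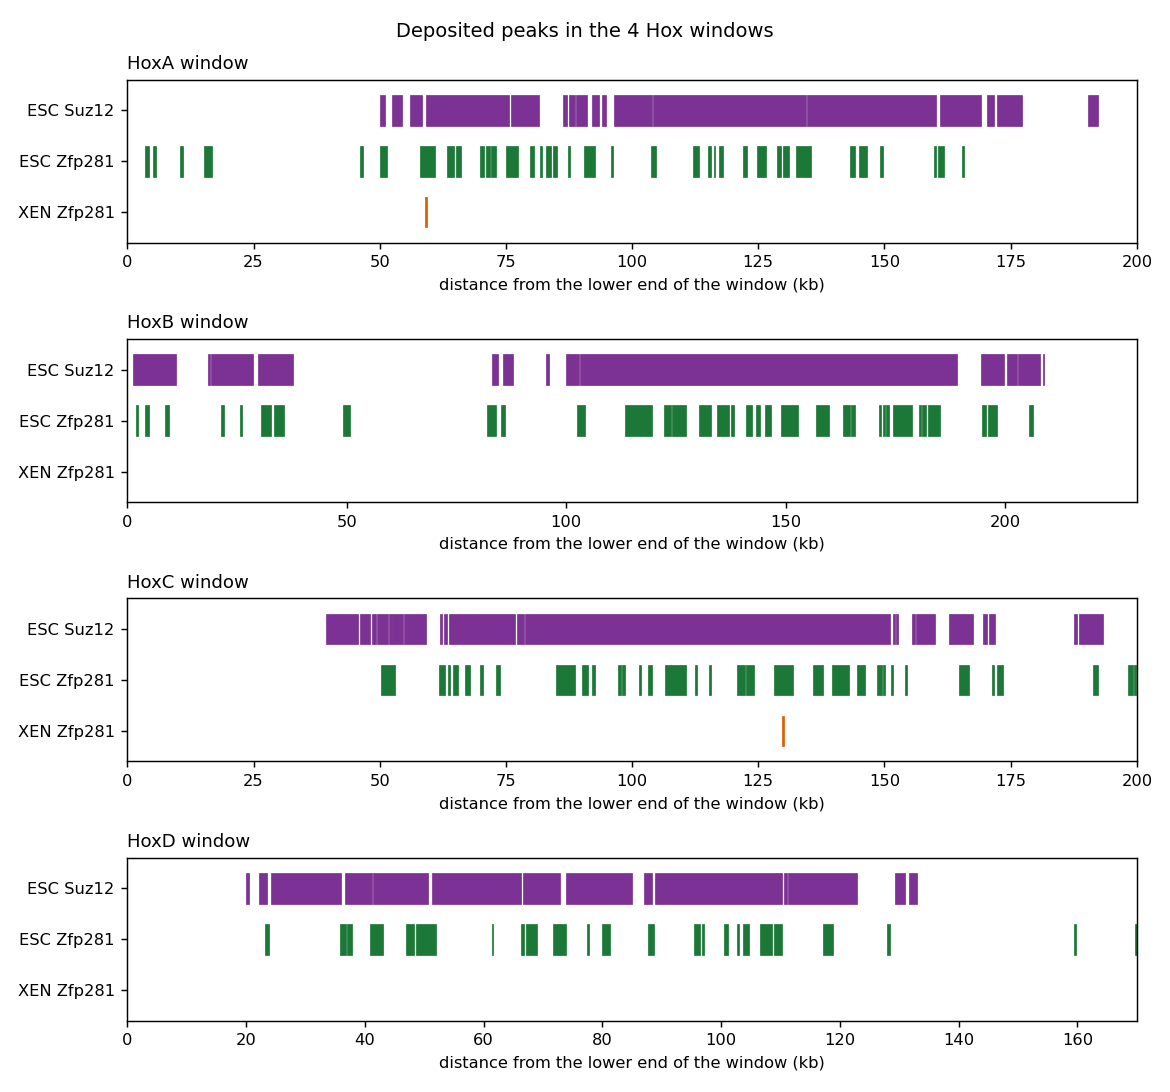
Deposited peaks in the 4 Hox windows. Each panel is 1 window, the horizontal axis is the distance from its lower end (kb), and each bar is a peak of the ESC Suz12, ESC Zfp281 or XEN Zfp281 list at its true width. Suz12 fills the middle of each window in long blocks, Zfp281 peaks are scattered along the same blocks, and the XEN Zfp281 list has 1 peak in HoxA and 1 in HoxC.

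Single Suz12 peaks on the Hox clusters were the widest of the ESC list. The HoxB peak chr11:96133144-96218983 was first of 8184 by width (85840 bp, 33.2-fold over the authors' background). The HoxC peak chr15:102778814-102851089 came next (72276 bp, 23.1-fold), ahead of the HoxA peak chr6:52154092-52184381 (30290 bp, 29.2-fold). The widest peak outside the Hox windows measured 27468 bp. In all, 5 of the 10 widest and 11 of the 100 widest Suz12 peaks were Hox peaks. HoxA also held chr6:52184707-52210220 (25514 bp, 26.2-fold), the fifth by width, and the widest HoxD peak, chr2:74558913-74580324 (21412 bp, 16.7-fold), was the seventh.

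When Suz12 peaks less than 5 kb apart were joined, the 5097 resulting domains placed the 4 clusters in ranks 1 to 4 by covered length. The HoxC domain chr15:102739284-102871888 spanned 132.6 kb, 117.9 kb of it in peaks. The HoxA domain chr6:52099984-52227158 spanned 127.2 kb with 111.2 kb in peaks, and the HoxD domain chr2:74490055-74592819 spanned 102.8 kb with 94.7 kb in peaks. The HoxB domain chr11:96125313-96218983 was the shortest of the 4, at 93.7 kb with 89.5 kb in peaks. The next domain elsewhere, on chromosome 7, had 46.8 kb in peaks. Every window held smaller Suz12 domains apart from the main one, 4 in HoxB, 2 in HoxC and 1 each in HoxA and HoxD. The largest of these outside HoxB, in HoxC, held 5.51 kb in peaks. The largest in HoxB, chr11:96048485-96067729, held 17.99 kb and ranked 60, and a stretch of 45.4 kb without any Suz12 peak (chr11:96067730-96113127) followed it. That stretch lay toward the paralogue 13 end of the window.

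Enrichment of Suz12 varied widely among peaks of a cluster. The authors' fold had a median of 9.16 in HoxA (2.76 to 29.2), 8.82 in HoxB (3.03 to 33.2), 5.83 in HoxC (2.80 to 27.5) and 15.4 in HoxD (3.35 to 39.8). The median was 8.87 over all 66 Hox peaks and 5.48 over the whole list, and the ranges of the 4 clusters overlapped. By the deposited score, 29 of the 66 (43.9%) were in the top decile of the list, 8 in HoxA, 6 in HoxB, 7 in HoxC and 8 in HoxD. The highest score in a Hox window belonged to the HoxD peak chr2:74494119-74505957 (39.8-fold, ranked 3 of 8184 by score), near the paralogue 13 end. It was followed in HoxD by chr2:74511373-74520560 (24.9-fold) and chr2:74521257-74536252 (26.96-fold).

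In HoxA the 3 top-scoring Suz12 peaks were chr6:52146423-52153894 (26.9-fold), chr6:52154092-52184381 (named above for its width) and chr6:52126084-52131471 (28.2-fold). In HoxB the widest peak also had the top score, ahead of chr11:96031274-96041177 (25.9-fold) and chr11:96224412-96229779 (17.1-fold). These 2 lay at opposite ends of the window. In HoxC the widest peak again led, ahead of chr15:102739284-102745673 (27.5-fold) and chr15:102856297-102859949 (20.6-fold). High Suz12 enrichment was therefore found inside the central block of a cluster and also at its edges.

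The outermost Suz12 peaks were mostly weaker. In HoxA the first was chr6:52099984-52101137 (5.10-fold) and the last chr6:52240273-52242318 (3.11-fold). In HoxD they were chr2:74490055-74490519 (4.26-fold) and chr2:74601712-74602978 (9.99-fold). In HoxB the last was chr11:96238511-96238891 (3.37-fold) and in HoxC chr15:102899967-102900533 (4.43-fold). The first Suz12 peaks of HoxB and HoxC were exceptions, both named above among the top scores (25.9-fold and 27.5-fold).

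**Figure D2:**
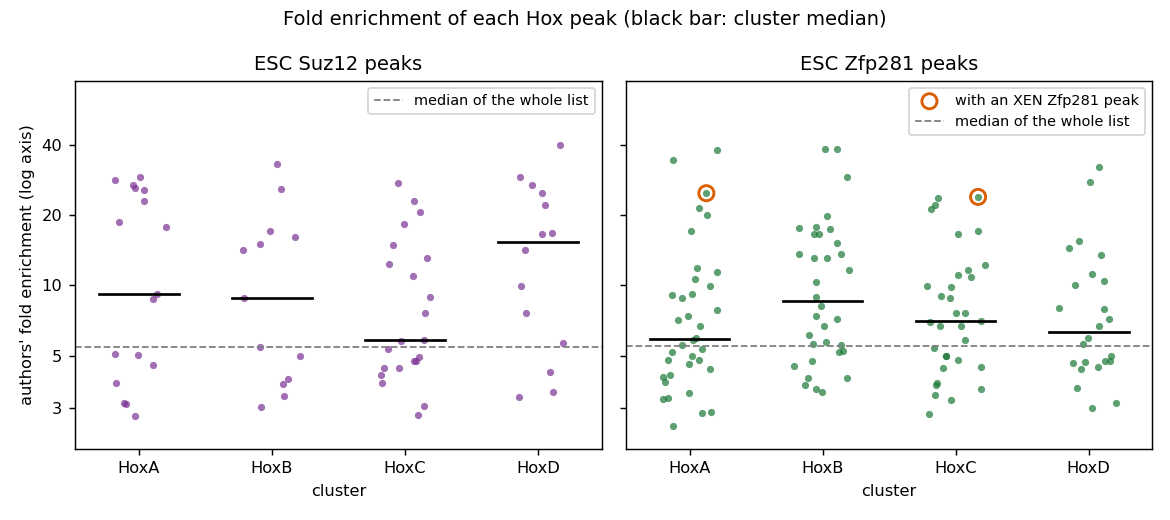
Fold enrichment of each Hox peak. Points are the 66 ESC Suz12 peaks (left) and the 127 ESC Zfp281 peaks (right) by cluster, on a log axis of the authors' fold, black bars are cluster medians and the dashed line is the median of the whole list (5.48 in both). Circles mark the 2 Zfp281 peaks that overlapped an XEN Zfp281 peak, at 24.8-fold in HoxA and 23.9-fold in HoxC.

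Zfp281 peaks of ESCs were also dense over the clusters, in many separate narrow sites and not in long blocks. HoxA held 36, HoxB 34, HoxC 33 and HoxD 24, or 18, 14.8, 16.5 and 14.1 per 100 kb. Over all 4 windows the density was 15.9 per 100 kb, against 2.03 in the rest of chromosomes 1 to 19 and X, a ratio of 7.82. The Hox peaks had a median width of 949 bp and that of the whole list was 594 bp. They covered 18.9% of HoxA, 25.03% of HoxB, 21.5% of HoxC and 15.4% of HoxD, against 1.54% of the rest.

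The Zfp281 density of the Hox windows was high but not the highest of the genome. Tiles of the same length held as many Zfp281 peaks in 0.0624% of cases for HoxA (8 of 12830), 0.35% for HoxB (39 of 11158), 0.195% for HoxC (25 of 12830) and 0.669% for HoxD (101 of 15100). All but 1, 2, 2 and 3 of these tiles lay outside the Hox windows. The median 200 kb tile held 2 Zfp281 peaks and the fullest 43. In the plot of both measures the Hox windows lay apart from the other tiles by their Suz12 coverage. Tiles elsewhere with 28 or more Zfp281 peaks had from 0 to 12.3% of their bases in Suz12 peaks.

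**Figure D3:**
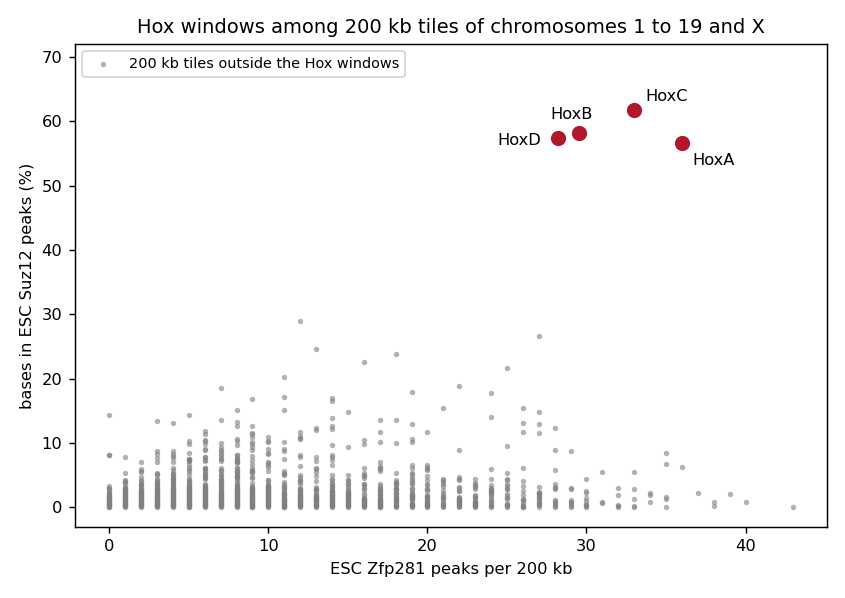
Hox windows among 200 kb tiles of chromosomes 1 to 19 and X. The horizontal axis is the number of ESC Zfp281 peaks per 200 kb and the vertical axis the percent of bases in ESC Suz12 peaks. Grey points are tiles outside the Hox windows, none above 29% Suz12, and the 4 windows (red, scaled to 200 kb) lie between 56.6 and 61.7%.

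The strength of Zfp281 at Hox sites ranged from 2.51-fold to 38.4-fold. The median fold was 5.91 in HoxA, 8.57 in HoxB, 7.02 in HoxC and 6.32 in HoxD, and the ranges overlapped. Over the 127 peaks it was 7.02, with a median of 33 tags, against 5.48 and 25 in the whole list. The expected level under the peaks is not a deposited value and was read back with the tags, assuming a Poisson p-value and a fold computed with 1 tag added to both the observed and the expected level. It had a median of 3.61 tags in the Hox windows and 3.31 in the whole list. In the top decile of the list by score were 25 of the 127 (19.7%), 10 of them in HoxB, 6 each in HoxA and HoxC and 3 in HoxD. The top 1% held 6, of which 2 were in HoxA, 3 in HoxB and 1 in HoxD.

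The strongest Zfp281 sites of HoxA lay on its low-numbered side. The top-scoring was chr6:52124977-52127416 (34.6-fold, 206 tags), ahead of chr6:52140473-52142623 (38.1-fold, 163 tags) and chr6:52108064-52110981 (24.8-fold, 109 tags). Each of the 3 bridged a short break between neighbouring Suz12 peaks, of 391, 1005 and 756 bp, and had its summit inside the break. The widest Zfp281 peak of HoxA, chr6:52182443-52185506 (3064 bp, 17.2-fold), also spanned such a break, of 325 bp, but its summit lay outside it.

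HoxB had 3 sites of like strength. These were chr11:96160255-96162881 (38.3-fold, 190 tags), inside the widest Suz12 peak of the list, chr11:96060401-96062622 (38.4-fold, 176 tags) and chr11:96111919-96113956 (29.1-fold, 168 tags). The last had its summit in the 45.4 kb stretch without Suz12 and reached the Suz12 peak at its upper edge. The widest Zfp281 peak of HoxB, chr11:96143271-96149514, measured 6244 bp (16.7-fold) and was among the 10 widest of the list.

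In HoxC the top-scoring sites were chr15:102784933-102788674 (23.8-fold, 123 tags), chr15:102839578-102842901 (22.1-fold, 109 tags) and chr15:102828119-102831948 (23.9-fold, 100 tags). All 3 lay in the 72276 bp Suz12 peak, as did the widest, chr15:102806522-102810762 (4241 bp, 16.7-fold). In HoxD they were chr2:74587216-74588819 (32.1-fold, 159 tags), chr2:74549927-74551294 (27.7-fold, 110 tags) and chr2:74576617-74578611 (15.5-fold, 76 tags). The strongest of these lay on the low-numbered side of the HoxD domain, while the strongest Suz12 peak lay near the paralogue 13 end. The widest was chr2:74518563-74522026 (3464 bp, 13.4-fold).

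Zfp281 peaks reached beyond the Suz12 blocks on some sides and stopped short of them on others. The first and last in HoxA were chr6:52053573-52054250 (9.998-fold), outside Suz12, and chr6:52215404-52215757 (5.02-fold), inside it. After the last one, 34.2 kb of the HoxA window had no Zfp281 peak. In HoxB they were chr11:96031902-96032341 (5.21-fold) and chr11:96235535-96236391 (3.61-fold), both on Suz12. In HoxC they were chr15:102750314-102752948 (11.6-fold), on Suz12, and chr15:102899450-102899775 (3.24-fold), off it. The 50.3 kb of the HoxC window before that first peak included a strong Suz12 peak but no Zfp281 peak. In HoxD they were chr2:74493207-74493796 (7.18-fold), on Suz12, and chr2:74639741-74640166 (4.98-fold), off it.

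Most Zfp281 sites of the clusters lay on Suz12. An overlap of at least 1 bp was found for 110 of the 127 Hox Zfp281 peaks, or 86.6% (79.6 to 91.5%), against 7.77% of the whole ESC Zfp281 list. The count was 27 of 36 in HoxA (75%, 58.9 to 86.3%), 33 of 34 in HoxB (97.1%, 85.1 to 99.5%), 29 of 33 in HoxC (87.9%, 72.7 to 95.2%) and 21 of 24 in HoxD (87.5%, 69 to 95.7%). The intervals overlapped between clusters. These shares stand beside a Suz12 coverage of 58.5% of the windows' bases and 0.481% of the rest.

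The reverse share was closer to that of the genome. A Zfp281 peak was found at 41 of the 66 Hox Suz12 peaks, or 62.1% (50.1 to 72.9%), against 45.8% of the whole ESC Suz12 list. It was 11 of 17 in HoxA, 9 of 13 in HoxB, 11 of 22 in HoxC and 10 of 14 in HoxD. The count per peak was uneven, since the widest HoxB peak met 21 Zfp281 peaks, the widest HoxC peak 18 and the widest HoxA peak 10, while 23 Hox Suz12 peaks met exactly 1. Strong Suz12 peaks without Zfp281 existed. The 27.5-fold HoxC peak chr15:102739284-102745673 and the 20.6-fold HoxC peak chr15:102856297-102859949 met none. The 39.8-fold HoxD peak met only a weak one at its upper end, chr2:74505755-74506864 (4.68-fold).

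The share was higher for wider Suz12 peaks, in the Hox windows and elsewhere. Among Suz12 peaks of 10 kb or more, 11 of 11 Hox peaks (74.1 to 100%) and 103 of 104 others (99.0%) met a Zfp281 peak. Among those of 5 to 10 kb it was 9 of 10 and 92.9%, among those of 2 to 5 kb 10 of 16 (62.5%, 38.6 to 81.5%) and 68.0%, and among those of 1 to 2 kb 7 of 12 (58.3%, 32.0 to 80.7%) and 49.4%. Under 1 kb it was 4 of 17 (23.5%, 9.56 to 47.3%) and 33.7%. In each class the interval of the Hox share included the share elsewhere.

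**Figure D4:**
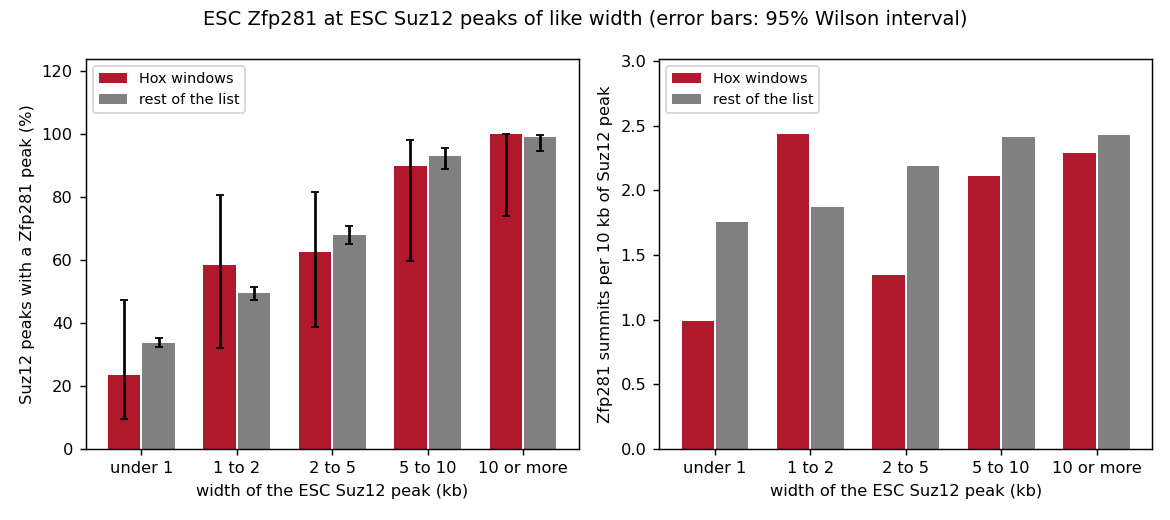
ESC Zfp281 at ESC Suz12 peaks of like width. Left, percent of Suz12 peaks with a Zfp281 peak by width class (kb), with 95% Wilson intervals, and right, Zfp281 summits per 10 kb of Suz12 peak, for the Hox windows (red) and the rest of the list (grey). The share is higher at greater width in both sets, and each Hox interval includes the grey bar.

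Counted per length of Suz12 peak and pooled over all widths, the density of Zfp281 on the Hox clusters was close to that on Suz12 peaks elsewhere. Inside Hox Suz12 peaks there were 100 Zfp281 summits in 468.1 kb, or 2.14 per 10 kb, and inside the other Suz12 peaks there were 2.07 per 10 kb. Zfp281 peaks covered 30.2% of the bases of Hox Suz12 peaks and 23.5% of those elsewhere. For Suz12 peaks of 10 kb or more, which made up 314.3 kb of the Hox length, the densities were 2.29 and 2.42 per 10 kb. They were 2.11 and 2.415 at 5 to 10 kb, and 1.35 and 2.185 at 2 to 5 kb. At 1 to 2 kb they were 2.43 and 1.87, and under 1 kb 0.987 and 1.75. Within a width class the Hox summit density was thus the higher only at 1 to 2 kb. The classes under 10 kb held few Hox summits, 16, 7, 4 and 1 in the same order. The share of bases in Zfp281 peaks was higher in Hox Suz12 peaks of 10 kb or more (33.6 against 29.5%). It was also higher at 1 to 2 kb (23.1 against 20.4%), and lower in the other classes. Off Suz12, the Hox windows held 27 summits in 331.9 kb, or 0.814 per 10 kb, against 0.194 in the rest of chromosomes 1 to 19 and X.

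The breaks between Suz12 peaks were not empty of Zfp281. Hox Suz12 peaks were separated by 49 gaps under 2 kb, 30.9 kb in all, with 10 Zfp281 summits (3.23 per 10 kb). The 13 longer gaps, 124.5 kb in all, also had 10 (0.803 per 10 kb), and the 176.4 kb beyond the first and last Suz12 peaks had 7 (0.397 per 10 kb). A Zfp281 peak touched 23 of the 49 short gaps, or 46.9% (33.7 to 60.6%), against 51% of all 2853 such gaps of the genome. Over those 2853 gaps the density was 4.41 summits per 10 kb, higher than in the short Hox gaps. Zfp281 peaks covered 41.4% of their bases and 31.2% of the bases of the short Hox gaps. Of the 10 summits in short gaps, 6 lay in HoxA, with a median of 14.6-fold, 2 in HoxC, 2 in HoxD and none in HoxB. The highest was 38.1-fold in HoxA, 6.73-fold in HoxC and 5.95-fold in HoxD. With 10 summits in all, the difference between clusters was not tested.

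Zfp281 peaks on Suz12 had the higher median fold, as had Suz12 peaks on Zfp281. The median fold of the 110 Hox Zfp281 peaks with Suz12 was 7.28 (width 971 bp) and that of the 17 without was 4.98 (592 bp). In the whole list these medians were 6.98 and 5.42. The strongest of the 17 were chr6:52065143-52066730 in HoxA (11.8-fold) and chr15:102872200-102873515 in HoxC (11.1-fold). For Suz12 the 41 Hox peaks with Zfp281 had a median of 15.0-fold and a width of 4981 bp, and the 25 without had 4.26-fold and 815 bp. The whole-list medians were 6.67 and 4.82. Peaks with a partner were also wider in both lists, and the part of width in the difference was not tested.

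Along the paralogue order, the main Suz12 domain of each cluster was divided at its midpoint. Zfp281 summits on the paralogue 13 side and the low-numbered side numbered 14 and 17 in HoxA (2.20 and 2.67 per 10 kb), 8 and 13 in HoxB (1.71 and 2.78), 14 and 15 in HoxC (2.11 and 2.26) and 9 and 12 in HoxD (1.75 and 2.34). Within the divided domains the paralogue 13 side had the lower density in 4 of 4 clusters, in HoxC by 14 against 15 summits. In HoxB the divided domain lay above the stretch of 45.4 kb without Suz12, and smaller Suz12 domains lay beyond it at both ends. Those toward the paralogue 13 end of that window, and their Zfp281 sites such as the 38.4-fold one, were left out of this count. So was the one toward the low-numbered end, chr11:96224412-96238891, which met 3 Zfp281 peaks. The HoxB values therefore compare inner parts of the window only, and not its paralogue 13 end with its low-numbered end. Bases in Zfp281 peaks went the same way, at 21.97 and 30.9% in HoxA, 42.9 and 45.9% in HoxB, 23.5 and 36.1% in HoxC and 23.4 and 25.3% in HoxD. The Suz12 coverage of the 2 sides had no common direction, being higher on the paralogue 13 side in HoxA (95.3 against 79.6%) and HoxC (91.1 against 86.7%), and lower in HoxB (91.1 against 100%) and HoxD (91.9 against 92.3%). The median Zfp281 fold had none either, with 5.71 and 5.21 in HoxA, 10.6 and 6.14 in HoxB, 6.85 and 7.66 in HoxC and 6.68 and 9.22 in HoxD. The differences in count were small, each from 1 library, and were not tested.

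In XENs, nearly all of the Hox Zfp281 sites of ESCs had no peak. A XEN Zfp281 peak overlapped 2 of the 127 ESC sites, or 1.58% (0.433 to 5.56%), against 5.1% of the whole ESC Zfp281 list. The interval of the Hox share includes the whole-list share. HoxA and HoxC had 1 each, and HoxB and HoxD had 0 of 34 (0 to 10.2%) and 0 of 24 (0 to 13.8%). Among Hox sites on Suz12 it was 2 of 110, or 1.82% (0.5 to 6.39%), against 4.92% of all ESC Zfp281 peaks on Suz12.

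Strong ESC sites were shared more often across the genome, and the Hox sites fell low in that comparison, which took peaks with and without Suz12 together. Of the top decile of ESC Zfp281 peaks by score, 24.9% overlapped a XEN peak, and of its 25 Hox peaks 2 did, or 8% (2.22 to 24.97%). Of the top 1% the share was 49.9%, and of its 6 Hox peaks none did (0 to 39.0%), namely the HoxA sites of 34.6-fold and 38.1-fold, the HoxB sites of 38.3-fold, 38.4-fold and 29.1-fold and the HoxD site of 32.1-fold. In the top decile the whole-list share lies just inside the upper bound of the Hox interval, and in the top 1% it lies above it. The 6 sites are few and sit in 3 windows, and this division by score was added after the data were seen. Strong ESC sites on Suz12 elsewhere were not set apart, so the low share is not shown to be particular to Hox. Among the joined Suz12 domains elsewhere ranked 5 to 12 by covered length, the one on chromosome 3 met 2 XEN Zfp281 peaks. Every other one of these met none.

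The 2 XEN peaks stood in the middle and in the lower part of their list. The HoxA peak chr6:52108957-52109314 (358 bp, 6.44-fold, 28 tags) ranked 1961 of 3449 by score. The HoxC peak chr15:102829768-102830041 (274 bp, 5.16-fold, 23 tags) ranked 2822. The median of the XEN list was 6.35-fold and 33 tags. Their ESC partners were 24.8-fold and 23.9-fold, each ranked 3 by score in its window among ESC Zfp281 peaks. Folds of different lists rest on different libraries and are set side by side only as values.

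Both XEN peaks lay within the bounds of a wide ESC site but away from its summit. The summits were 538 bp apart in HoxA and 725 bp apart in HoxC. Of the 2787 XEN peaks with an ESC Zfp281 partner, 10.1% had summits more than 500 bp apart, and the median distance was 56 bp. Those values took ESC partners of every width, while these 2 measured 2918 and 3830 bp against a list median of 594 bp. Distances at ESC sites of like width were not compared. The HoxA XEN peak overlapped the lower end of the ESC Suz12 peak chr6:52109118-52125692, and the HoxC XEN peak lay inside the 72276 bp Suz12 peak. Beyond the windows the nearest XEN Zfp281 peaks were 241.7 kb below and 1434 kb above HoxA, 27.2 kb below and 69.6 kb above HoxB, 197.6 kb below and 235.7 kb above HoxC, and 1593 kb below and 253.2 kb above HoxD. The density of XEN Zfp281 peaks was 0.25 per 100 kb in the windows and 0.134 in the rest, which with 2 peaks does not separate the Hox clusters from the genome.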

How the data were processed

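ChIP-seq libraries of mouse ESCs and XENs were grouped by their titles into 7 groups of 1 sample. The submitters' processing notes name FastQC 0.10.1, Bowtie2 2.3.4, SAMtools 0.1.19 and build mm9, with no role for each. The peak caller, its threshold, its control and the treatment of duplicates are not given in the sources used here. The authors deposited 1 list of peaks per immunoprecipitated sample, each peak with its fold enrichment (a ratio over background), a score and the −log10 of its p-value and of its q-value. These were used only within a list, to describe, rank or divide its peaks.

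Peaks overlapping a Hox window by 1 bp or more were counted, and lists were compared by the same overlap with Python 3.11.15, numpy 2.4.6, pandas 2.3.3 and scipy 1.17.1. Covered length is the union of peaks. Tiles were laid end to end along chromosomes 1 to 19 and X. With the peak caller unknown, p was assumed to be a Poisson tail and fold the ratio of observed to expected tags after adding 1 to each. The tags of a peak were taken as the whole number that, times 1 scale factor per list, gave both the deposited fold and the deposited −log10 p-value. Such a number was found for 99.9% of ESC Suz12, 99.83% of ESC Zfp281 and 100% of XEN Zfp281 peaks. It stands for the pile-up on which these values rest and is not a count of reads over the width of the peak. Overlap counts were checked on simulated peaks.

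Peaks were named by rule: all peaks of a list with 10 or fewer in a window, and otherwise the widest, the 3 highest by score, the first and the last. Other named peaks were chosen after their values were seen. The members and lists were chosen with earlier results of these data known, and the tiles, joined domains, gaps, width classes, domain sides and summit distances were added after these files were seen. A list of Hox regulators was not described, since no annotation of mm9 was used here. The alternatives tried were windows widened by 50 kb, only the higher-scoring 50% of peaks, the summit inside the window, merging of peaks closer than 500 bp, an overlap of 50% of the shorter peak and leaving out each cluster.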

Additional observations from a re-analysis of the deposited data

How the results depend on the processing

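Of 73 values under alternatives, 65 stayed within the 95% Wilson interval of a share or within 1.5 times another value, and 8 moved further. In the higher-scoring 50% of each list, 42 Hox Suz12, 84 Hox ESC Zfp281 and 0 Hox XEN Zfp281 peaks remained, the median Suz12 fold was 16.7, and the share of ESC Zfp281 sites with a XEN peak was 0%. With peaks closer than 500 bp merged there were 41 Suz12 peaks. Where the shared stretch had to reach 50% of the shorter peak, 43.9% of Hox Suz12 peaks met Zfp281. For this share and the 0% above, no whole-list share was computed under the same setting. They cannot be set beside the whole-list 45.8% and 5.1%, which took the full lists and an overlap of 1 bp. In the top decile of ESC Zfp281 peaks, chosen after the data were seen, the share with a XEN peak was 8%. No paired analysis was possible because no group had more than 1 library. Counts of Suz12 peaks depend on where the caller cut a domain, and covered length depends less on it. A site without a XEN peak was not called in that list, and is not shown to be unbound.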
